A study of Mus musculus with 6 samples.

Results

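The genes described here are 10 genes of the mature neutrophil and its growth factor: Csf3, which encodes G-CSF, its receptor gene Csf3r, the receptor genes Fpr1, Fpr2, Trem1, Clec4d, Clec4e and Hcar2, the surface antigen gene Ly6g and the enzyme gene Padi4. They were chosen by symbol, and all 10 had a row among the 21899 genes of the deposited table. Read counts came from colon RNA of Adamts4 knockout mice (KO, 3 libraries) and wild-type mice (WT, 3 libraries). Every animal had received 2.5% dextran sodium sulfate (DSS) for 7 days, so treatment is shared by both groups. DSS injures the colonic epithelium and causes an acute colitis, and ADAMTS4 is a secreted protease that cleaves large proteoglycans. Untreated animals were not analysed here. The sources used here do not give the knockout allele, strain, sex or age of the mice, or say that each library is 1 animal. A difference in background between the groups cannot be told apart from the loss of Adamts4, and p-values measure only the spread between these libraries.

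G-CSF is secreted by stromal, epithelial and myeloid cells in response to IL-1, TNF and IL-17. It acts on granulocyte precursors and neutrophils through the G-CSF receptor, which signals through JAK kinases and STAT3 and induces the feedback inhibitor SOCS3. Mature neutrophils carry receptors for bacterial formyl peptides, C-type lectin receptors and TREM-1, which guide their migration and amplify their activation at a wounded mucosa. Several of these genes are also expressed by monocytes and macrophages.

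The 6 libraries held 15786214 to 22932125 counts, and a floor of 3 counts corresponded to 0.128 to 0.186 CPM (read counts over library size, scaled by TMM factors). Adamts4 was at 0 counts throughout KO, whereas WT had 48.3 ± 8.94 CPM (SD, n = 3), so KO was at least 289-fold lower against that floor per library (edgeR adjusted p = 0.00213). Markers of colonic epithelium summed to 11600 to 14500 CPM in KO and 10700 to 13200 in WT. KO 3 stood apart: mitochondrial genes took 9.50% of its counts, against 4.03% to 7.66% in the other 5 libraries. Its fibroblast markers summed to 602 CPM against 2070 to 4430 CPM elsewhere, and its macrophage and monocyte markers to 317 against 688 to 1260 CPM. Erythroid genes summed to 81.4 to 236 CPM in KO and to 382, 425 and 1700 CPM in WT 1, WT 2 and WT 3. All 6 of them lay lower in KO without overlap, against 10.2% of all genes tested. Among them Slc4a1 had 17, 3 and 2 counts in KO 1, KO 2 and KO 3. It passed the filter on low counts through WT alone, which favours a difference. Smooth muscle markers summed to 3710 to 4480 CPM in KO and 2100 to 3370 in WT, and B lineage markers to 179 to 309 and 543 to 1250 CPM. Endothelial markers summed to 239, 183 and 73.8 CPM in KO 1, KO 2 and KO 3 and to 262 to 330 CPM in WT. All 6 had a log2 fold change below 0, against 45.8% of all genes tested, and 3 of them lay lower without overlap. DESeq2 called 1 endothelial marker (Pecam1), 2 erythroid and 2 B lineage genes lower, against 2.75% of all genes. It called 3 smooth muscle markers higher, against 0.677% of all genes. The sums of blood, endothelial, smooth muscle and B lineage markers thus separated the genotypes, and their part in the results on the 10 genes was not tested.

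All 10 genes had lower mean levels in the KO colons, by 0.71 to 4.08 on the log2 scale, and in 8 of them every KO library lay below every WT library. Csf3 differed most, followed by Clec4e and Fpr2, and Csf3r differed least. None passed the main test, edgeR's quasi-likelihood test with Benjamini-Hochberg adjustment over 14553 genes at 0.05, which called 0.151% of all genes lower in KO and 0.00687% higher. At an adjusted p below 0.1 it held Csf3 and Fpr2, with 0.783% of all genes lower at that level. At an unadjusted p below 0.05 the same test held 8 of the 10, all lower in KO, against 7.85% of all genes lower and 5.17% higher at that level. Of all genes tested, 45.8% had a log2 fold change below 0 and 54.2% above it. DESeq2, run as an alternative, called 7 of the 10 lower (Csf3, Fpr2, Clec4e, Clec4d, Ly6g, Hcar2 and Trem1), where it called 2.75% of all genes lower. The authors' deposited table lists the same 7 genes below 0.05, with 1.93% of its genes lower in KO at that threshold. Its unadjusted p-values for the 10 genes equal those of DESeq2 here, so it is not a second source for these calls. KO below WT without overlap was found in 10.2% of all genes tested. The median log2 fold change of the 10 was -1.77, beside 0.03 over all genes tested. All 10 passed the filter on low counts, but 4 of them (Csf3, Fpr1, Clec4e and Padi4) reached its cut in fewer than 3 KO libraries and so passed through WT alone, which favours a difference. In bulk tissue, fewer neutrophils, less RNA per neutrophil and a change in other cells that express these genes cannot be told apart.

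**Figure D1:**
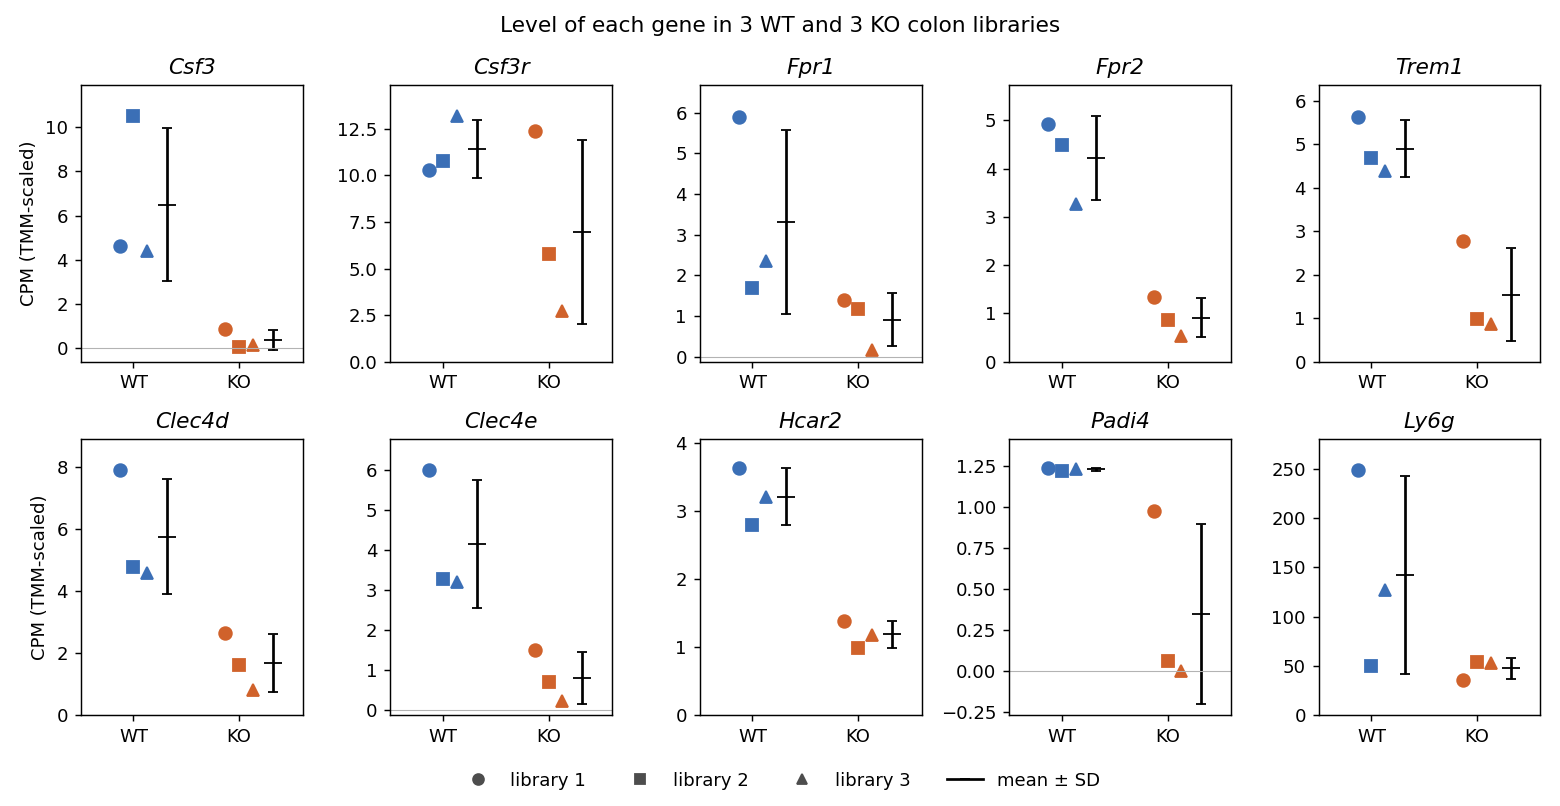
CPM (TMM-scaled) of each gene in the 3 WT (blue) and 3 KO (orange) libraries, with marker shape for the library number and the black bar for mean ± SD; each panel has its own linear axis. The groups overlap for Csf3r, where KO 1 reached 12.4 CPM, and for Ly6g, where WT 2 had 50.5 CPM, and in the other 8 panels all KO points lie below all WT points.

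The growth factor gene Csf3 (chromosome 11, 98701263 to 98703629, GRCm38) was nearly lost in KO. It had 4.62, 10.5 and 4.38 CPM in WT 1, WT 2 and WT 3. The KO libraries had 0.873, 0.062 and 0.161 CPM in KO 1, KO 2 and KO 3. In reads this was 17, 1 and 3 in KO against 108, 206 and 78 in WT, so KO 2 and KO 3 lay at or under the floor of 3 counts and KO 1 alone was measured with any precision. The mean was 17.8-fold higher in WT (6.50 ± 3.46 against 0.365 ± 0.443 CPM, SD, n = 3). The log2 fold change was -4.08 ± 0.76 (SE), with an edgeR adjusted p of 0.0848, and Csf3 fell in DESeq2 (adjusted p = 4.63e-07). The DESeq2 call held in each of 6 fits that left out 1 library, with adjusted p from 1.83e-08 to 0.00341. In edgeR, the fit without KO 1 called it (-5.75, adjusted p = 0.0467) and the other 5 did not (0.109 to 0.257).

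Its receptor gene Csf3r (chromosome 4, 126024550 to 126044440) had overlapping groups. Csf3r had 10.3, 10.8 and 13.2 CPM in WT 1, WT 2 and WT 3, a narrow range. In KO 1 it stood at 12.4 CPM, among the WT values, and it was lower in KO 2 and KO 3, at 5.76 and 2.74 CPM. The log2 fold change of -0.71 had a 95% interval of -1.79 to 0.37 (edgeR adjusted p = 0.561). Without KO 1 it was -1.43, which DESeq2 called (adjusted p = 0.00544) and edgeR did not (0.123). Without KO 3 it was -0.33.

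The formyl peptide receptor genes Fpr1 and Fpr2 are neighbours on chromosome 17 that are read in opposite directions, 3884 bases apart. Fpr1 (17876471 to 17883940) encodes the high-affinity receptor for bacterial formyl peptides. Fpr2 (17887824 to 17893952) encodes a receptor that also binds serum amyloid A, annexin A1 and cathelicidin peptides. Fpr2 had 4.92, 4.48 and 3.26 CPM in WT 1, WT 2 and WT 3 and 1.34, 0.867 and 0.537 CPM in KO 1, KO 2 and KO 3. Its groups were well separated, with a log2 fold change of -2.20 ± 0.40 (edgeR adjusted p = 0.0821), and it fell in DESeq2 (adjusted p = 0.000214), also with each library left out (3.47e-05 to 0.0194). Fpr1 had 5.90, 1.68 and 2.36 CPM in WT and 1.39, 1.18 and 0.161 CPM in KO. The gap between the groups was small, since WT 2 and KO 1 were close, and WT 1 stood high. Fpr1 differed by -1.87 ± 0.72 (edgeR adjusted p = 0.339, DESeq2 0.151), and by -1.16 without WT 1. The ratio of Fpr2 to Fpr1 in TPM, which is per length, ran from 0.861 to 3.90 in KO and from 1.06 to 3.42 in WT, with no separation of genotypes. Fpr2 overlaps Fpr3 in the annotation, and Fpr3 had 0 counts in every library.

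Clec4d and Clec4e are neighbours on chromosome 6, 6524 bases apart. They encode the C-type lectin receptors MCL and Mincle, which recognise mycobacterial glycolipids and, for Mincle, a nuclear protein released by dying cells, and which signal through the Fc receptor gamma chain. Clec4d (123262111 to 123275265) had 7.91, 4.79 and 4.60 CPM in WT 1, WT 2 and WT 3 and 2.67, 1.61 and 0.805 CPM in KO 1, KO 2 and KO 3. Clec4e (123281789 to 123289870) had 5.99, 3.26 and 3.20 CPM in WT and 1.49, 0.682 and 0.215 CPM in KO. Both genes ranked the libraries alike: WT 1 was highest and KO 3 lowest, without overlap of the groups. The log2 fold changes were -1.76 ± 0.45 for Clec4d and -2.37 ± 0.61 for Clec4e (edgeR adjusted p = 0.179 and 0.176), and both fell in DESeq2 (0.00877 and 0.00514). These DESeq2 calls were lost without WT 1 (0.230 and 0.211) and without KO 2 (0.0765 and 0.0698), and that of Clec4d also without WT 2 (0.0572). The Clec4d to Clec4e ratio in TPM was 2.47 to 2.89 in WT and 2.98, 4.88 and 8.19 in KO 1, KO 2 and KO 3; the KO 3 ratio rests on 4 Clec4e reads.

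Trem1, Hcar2 and Padi4 were lower in KO to a similar extent and differed in their spread. Trem1 (chromosome 17, 48232768 to 48246924) encodes a receptor that amplifies inflammatory signals through the adaptor DAP12. It had 5.64, 4.69 and 4.38 CPM in WT 1, WT 2 and WT 3 and 2.77, 0.991 and 0.859 CPM in KO 1, KO 2 and KO 3, so KO 1 lay between the other KO libraries and WT. Trem1 differed by -1.66 ± 0.46 (edgeR adjusted p = 0.207) and fell in DESeq2 (0.0224). That call was kept in 1 of 6 fits that left out a library, the fit without KO 1 (5.61e-06), and its adjusted p in the other 5 was 0.115 to 0.251. Hcar2 (chromosome 5, 123863570 to 123865499) encodes the receptor for niacin, butyrate and the ketone body beta-hydroxybutyrate, which macrophages, adipocytes and colonic epithelium also express. Hcar2 had the tightest groups of the receptors in KO, with 3.63, 2.80 and 3.20 CPM in WT and 1.39, 0.991 and 1.18 CPM in KO. The fold change was -1.43 ± 0.31 (edgeR adjusted p = 0.116), and it fell in DESeq2 (0.0209). Its DESeq2 call was also kept only without KO 1 (0.0177; 0.0616 to 0.187 in the other 5 fits).

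Padi4 (chromosome 4, 140745865 to 140774236) encodes the enzyme that converts histone arginine to citrulline during the release of neutrophil extracellular traps, and it is not a surface protein. It was the least abundant of the 10. Its WT values were nearly equal, at 1.24, 1.22 and 1.23 CPM (29, 24 and 22 counts). KO 1 had 0.976 CPM (19 counts), KO 2 had 1 count and KO 3 had none. The log2 fold change of -1.77 had a 95% interval of -3.97 to 0.43 (edgeR adjusted p = 0.473, DESeq2 0.486). Without KO 1 it was -5.12, which rests on 1 read in KO (edgeR adjusted p = 0.0633, DESeq2 0.0137).

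**Figure D2:**
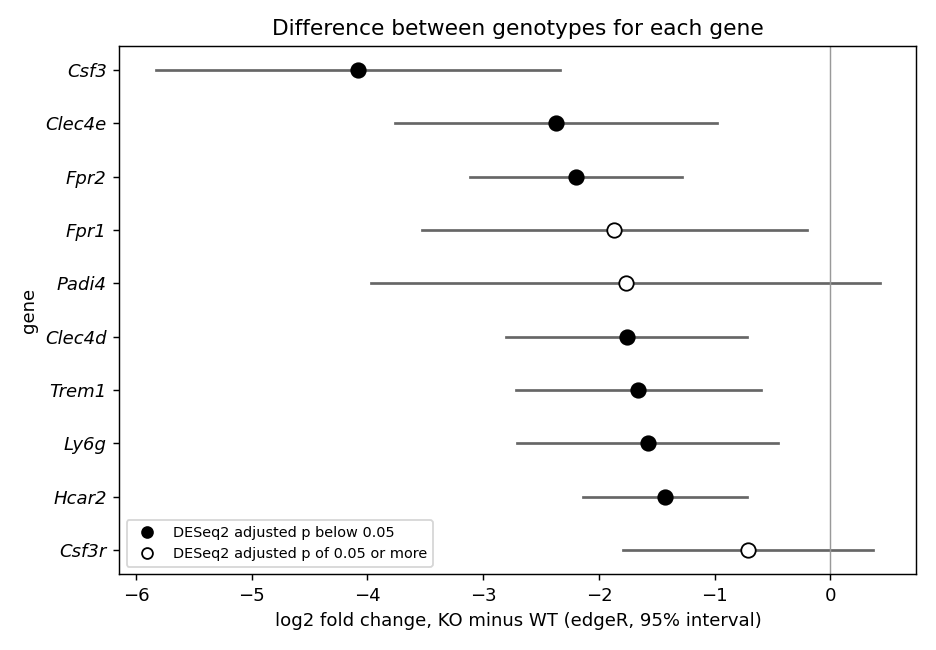
log2 fold change of each gene, KO minus WT, from edgeR with its 95% interval; filled circles mark genes with a DESeq2 adjusted p below 0.05 and open circles the others. All 10 estimates lie below 0, and the intervals of Csf3r and Padi4 include 0.

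Ly6g (chromosome 15, 75155240 to 75159126), whose product is the antigen used to identify mouse neutrophils with antibodies, stood apart in level and in pattern. Per length it was far above the others: 276 ± 193 TPM in WT and 89.6 ± 20.9 TPM in KO, whereas the other 9 genes had WT means of 0.980 to 8.52 TPM. It had 249, 50.5 and 127 CPM in WT 1, WT 2 and WT 3. The KO libraries had 35.7, 53.7 and 53.2 CPM in KO 1, KO 2 and KO 3. WT 2 thus lay below KO 2 and KO 3, and KO 1, which was the highest KO library for the other 9 genes, was the lowest for Ly6g. The fold change of -1.58 ± 0.49 did not pass in edgeR (adjusted p = 0.248), and Ly6g fell in DESeq2 (0.0125). That call was lost when KO 1, KO 2, KO 3, WT 1 or WT 3 was left out (DESeq2 adjusted p = 0.0921 to 0.419) and was kept without WT 2 (7.15e-06). Without WT 1 the edgeR difference was -0.91. Relative to Csf3r, Ly6g TPM was 82.2, 16.2 and 33.7 times higher in WT 1, WT 2 and WT 3 and 9.88, 31.6 and 65.3 times higher in KO 1, KO 2 and KO 3. These ratios overlap between the genotypes.

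In WT, levels per length ordered the other genes as Csf3 (8.52 ± 4.70 TPM), Clec4d (mean 8.46), Fpr2 (7.60 ± 1.43), Csf3r (6.45 ± 0.733), Fpr1 (4.59 ± 3.12), Trem1 (3.20 ± 0.504), Clec4e (3.13 ± 1.06), Hcar2 (3.06 ± 0.364) and Padi4 (0.980 ± 0.0121). Neighbours in this order differed by less than the larger of their SDs, except that Padi4 lay below Hcar2 by more than either. In KO, Csf3r (3.90 ± 2.74 TPM) and Clec4d (2.58 ± 1.47) came first after Ly6g, and Csf3 (0.457 ± 0.559) and Padi4 (0.267 ± 0.419) last.

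The libraries ranked alike for most of the genes. KO 1 was the highest KO library for 9 of 10 genes, KO 3 the lowest library of all for 7, and WT 1 the highest WT library for 8, where 36.2%, 25.7% and 33.5% of all genes tested had that pattern. Centred log2 levels averaged over the 10 genes were 1.10, 0.61 and 0.66 in WT 1, WT 2 and WT 3 and -0.22, -0.87 and -1.27 in KO 1, KO 2 and KO 3. Clec4d, Trem1 and Fpr2 lay closest to this mean profile (root-mean-square differences of 0.12, 0.16 and 0.18) and Csf3 and Ly6g farthest (0.89 and 0.74). KO 1 and KO 3 also differed in stromal and macrophage markers, as given above, and the part of this in the KO spread was not tested.

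**Figure D3:**
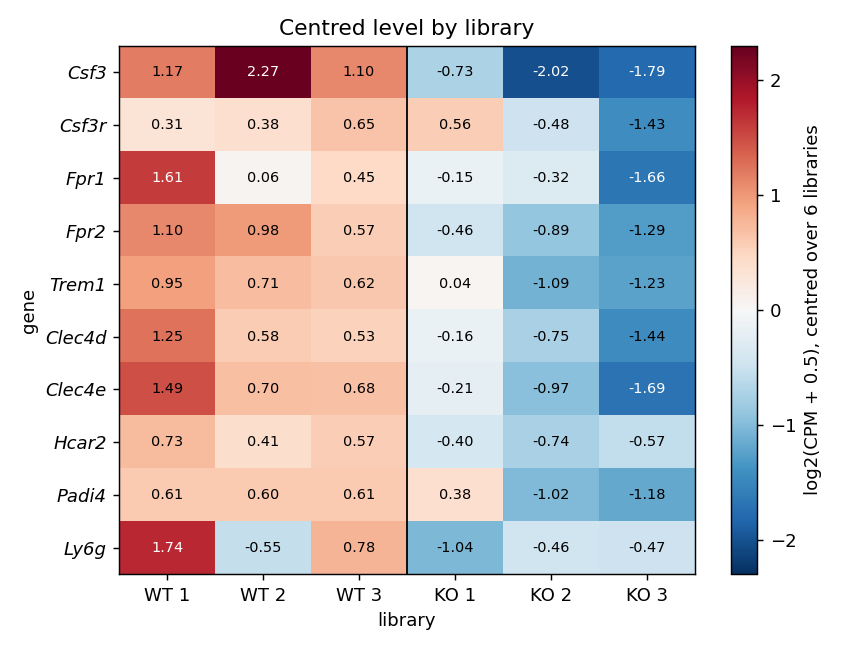
Heat map of log2(CPM + 0.5) of each gene (rows), centred on its mean over the 6 libraries (columns, WT left of the black line and KO right), with the value in each cell. KO 1 is the highest KO column for every gene but Ly6g, Csf3r is above its mean in KO 1 (0.56), and Ly6g is below its mean in WT 2 (-0.55).

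**Figure D4:**
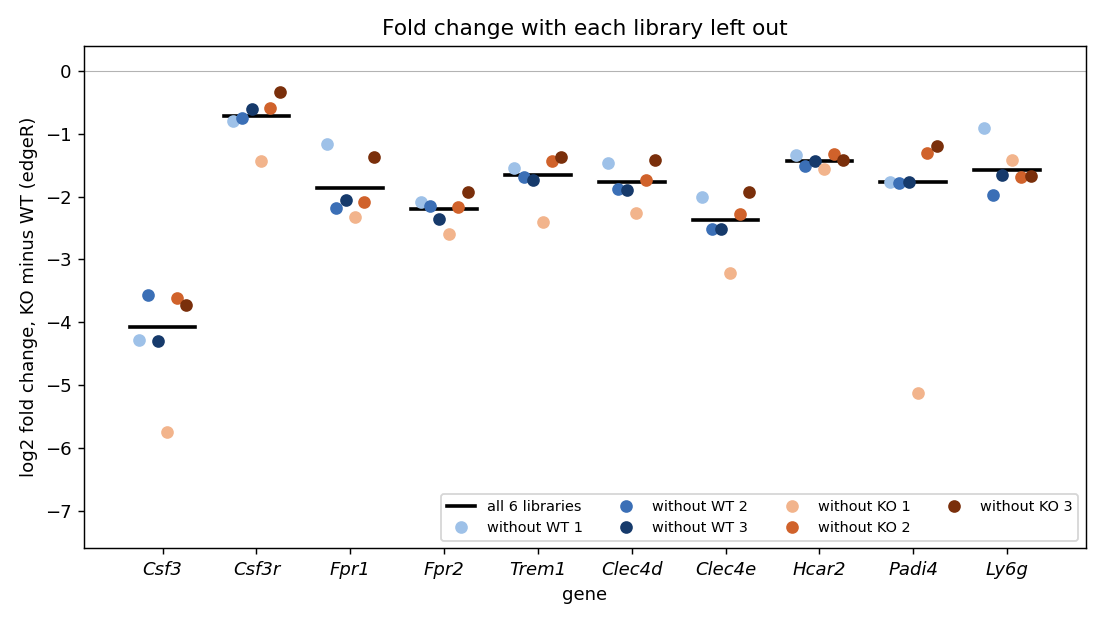
edgeR log2 fold change of each gene, KO minus WT, with all 6 libraries (black bar) and with each library left out (coloured points). All points lie below 0; leaving out KO 1 gave the lowest value for every gene but Ly6g (-5.75 for Csf3, -5.12 for Padi4, -3.22 for Clec4e), and leaving out WT 1 gave the highest for Ly6g (-0.91).

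Sequence upstream of the start site was examined for letters bound by regulators of myeloid genes, as a description. RefSeq promoters (GRCm38.p6) were found for 8 of the 10 genes, and not for Csf3 and Hcar2. Within the 250 bases before the start, on both strands, the PU.1 core GAGGAAG occurred in 3 of these 8 genes (Csf3r, Clec4d and Ly6g) and in 10.6% of all 32851 promoters in that table. The C/EBP motif TTGCNNAA occurred in 2 (Clec4e and Ly6g; 9.56% of all promoters), and the NF-kappaB pattern (GGG and CC with 5 bases of any kind between them) in 3 (Csf3r, Padi4 and Ly6g; 45.8%). Matches of different motifs did not overlap. Fpr1, Fpr2 and Trem1 held none of these letters in this window. Printed 5′ to 3′ on the strand of the gene, with matches in capitals, are the neighbours Clec4d (chr6:123261857-123262106, plus strand) and Clec4e (chr6:123289872-123290121, minus strand), Fpr2 (chr17:17887574-17887823, plus strand), and Ly6g (chr15:75155011-75155260, plus strand), which had matches to all 3 motifs. RefSeq and GENCODE starts differ: the windows of Csf3r, Padi4 and Ly6g end 109, 33 and 21 bases inside the GENCODE gene. The PU.1 core of Csf3r, 86 to 80 bases before the RefSeq start, lies in that part. Another Ly6g promoter (chr15:75155079-75155328) held the NF-kappaB and PU.1 matches and no C/EBP match.
Clec4d: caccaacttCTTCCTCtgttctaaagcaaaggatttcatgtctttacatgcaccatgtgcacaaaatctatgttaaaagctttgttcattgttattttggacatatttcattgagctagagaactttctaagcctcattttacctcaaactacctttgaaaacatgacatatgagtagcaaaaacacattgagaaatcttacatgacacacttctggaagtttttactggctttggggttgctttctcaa
Clec4e: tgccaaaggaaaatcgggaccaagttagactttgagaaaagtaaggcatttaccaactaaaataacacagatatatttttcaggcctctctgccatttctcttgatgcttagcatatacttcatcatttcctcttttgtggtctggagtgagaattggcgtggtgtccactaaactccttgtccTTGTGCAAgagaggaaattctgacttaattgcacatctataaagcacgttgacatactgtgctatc
Fpr2: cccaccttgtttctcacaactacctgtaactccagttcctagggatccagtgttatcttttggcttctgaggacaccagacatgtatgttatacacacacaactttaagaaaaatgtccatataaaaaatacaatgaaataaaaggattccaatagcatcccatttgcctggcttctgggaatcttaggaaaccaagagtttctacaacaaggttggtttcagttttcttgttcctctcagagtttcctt
Ly6g: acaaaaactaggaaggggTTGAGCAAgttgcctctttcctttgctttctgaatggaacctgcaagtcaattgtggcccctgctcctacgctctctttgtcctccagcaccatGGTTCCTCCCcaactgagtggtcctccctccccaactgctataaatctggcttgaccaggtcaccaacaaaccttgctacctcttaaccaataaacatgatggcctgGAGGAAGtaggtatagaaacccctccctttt
The capitals of Clec4d are the PU.1 core on the opposite strand, 241 to 235 bases before the start. Those of Clec4e are a C/EBP match on the opposite strand, 66 to 59 bases before it. In Ly6g they are, in order, a C/EBP match, an NF-kappaB match and a PU.1 core, the last 31 to 25 bases before the start. The C/EBP and NF-kappaB matches of Ly6g are on the opposite strand, and its PU.1 core is on the strand of the gene.

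Other neutrophil genes were mostly lower in the same libraries. Of 25 such genes 24 had a row and 18 were tested. Their median log2 fold change was -2.18, and 13 lay lower in KO without overlap, against 10.2% of all genes. edgeR called none in either direction. At an unadjusted p below 0.05 it held 12 lower and 1 higher, against 7.85% and 5.17% of all genes. DESeq2 called 11 lower and 1 higher, against 2.75% and 0.677% of all genes. These shares also apply to the lists below. Ngp and Stfa2l1, with 1 and 9 counts over the KO libraries, passed the filter through WT alone, which favours a difference. The same holds for Mmp8 and Retnlg, which were under its cut in KO 3, with 3 and 4 counts there. The calprotectin genes S100a8 and S100a9, whose protein fills the neutrophil cytoplasm, differed by -3.22 ± 0.68 and -2.78 ± 0.58 (edgeR adjusted p = 0.115 for both), and both fell in DESeq2. Mmp8, neutrophil collagenase, differed by -4.16 ± 0.64 (edgeR adjusted p = 0.0595), with 19, 10 and 3 counts in KO 1, KO 2 and KO 3. Cxcr2, the receptor for CXC chemokines on neutrophils, differed by -1.34 ± 0.41, which DESeq2 did not call (adjusted p = 0.0798). The siderophore-binding protein gene Lcn2 had 120 ± 76.8 CPM in WT and 15.1 ± 8.92 in KO, and Lrg1, a granule and plasma glycoprotein gene, 65.3 and 21.1 CPM. Mpo and Elane, genes of primary granule enzymes, had 3 and 2 counts over all 6 libraries.

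Cd177, another surface protein of neutrophils, went against this. It had 168, 289 and 259 CPM in WT 1, WT 2 and WT 3 and 530, 231 and 183 CPM in KO 1, KO 2 and KO 3 (0.40 ± 0.40, edgeR adjusted p = 0.717). Its groups overlapped, with the highest value of all in KO 1. Slfn4, a Schlafen gene of myeloid cells, was higher in KO (82.7 ± 24.7 against 42.4 ± 11.8 CPM, 0.96 ± 0.27), a difference that DESeq2 called (adjusted p = 0.0283) and edgeR did not (0.207).

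Set against the calprotectin genes of the same library, most of the receptor genes had a higher ratio in KO, as they differed less than S100a8 and S100a9. The summed level of S100a8 and S100a9 was 123, 50.1 and 44.1 CPM in WT 1, WT 2 and WT 3 and 18.0, 6.26 and 4.19 CPM in KO 1, KO 2 and KO 3. A gene at equal CPM in all libraries would thus also have a higher ratio in KO without overlap. The log2 ratio of Csf3r to this sum was -3.57, -2.20 and -1.73 in WT and -0.53, -0.12 and -0.60 in KO, a difference of 2.08 between the group means. Hcar2 differed by 1.67, Trem1 by 1.25, Clec4d by 1.23 and Fpr1 by 1.13, and like Csf3r they showed no overlap. In each of these 5 the exact permutation test (two-sided) gave p = 0.1, which is the lower limit with 3 libraries a group, and 0.2 after Benjamini-Hochberg adjustment over the 10 genes. The share of all genes without overlap in this ratio was not computed. For Fpr1 the gap was small, with -4.04 in KO 3 against -4.17 in WT 3. The KO 3 value rests on 3 reads (0.161 CPM), near the pseudocount of 0.1 CPM, so the separation of Fpr1 depends on the pseudocount. Fpr2 (0.89), Clec4e (0.56), Padi4 (0.68) and Ly6g (1.72) overlapped (exact permutation p = 0.2 to 0.6). Csf3 was the exception, with a lower ratio in KO (-1.10, exact permutation p = 0.3), which shrank to -0.06 with a pseudocount of 0.5 CPM in place of 0.1. The direction rests on the genes in the denominator. With all 12 neutrophil markers in it, the ratio was lower in KO for all 10, and Cd177 made up 90.3% to 94.2% of that sum in KO and 41.9% to 69.6% in WT. With the markers other than Cd177, a denominator chosen after seeing this, the ratio was again higher in KO for all but Csf3, by 0.30 (Clec4e) to 1.83 (Csf3r).

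**Figure D5:**
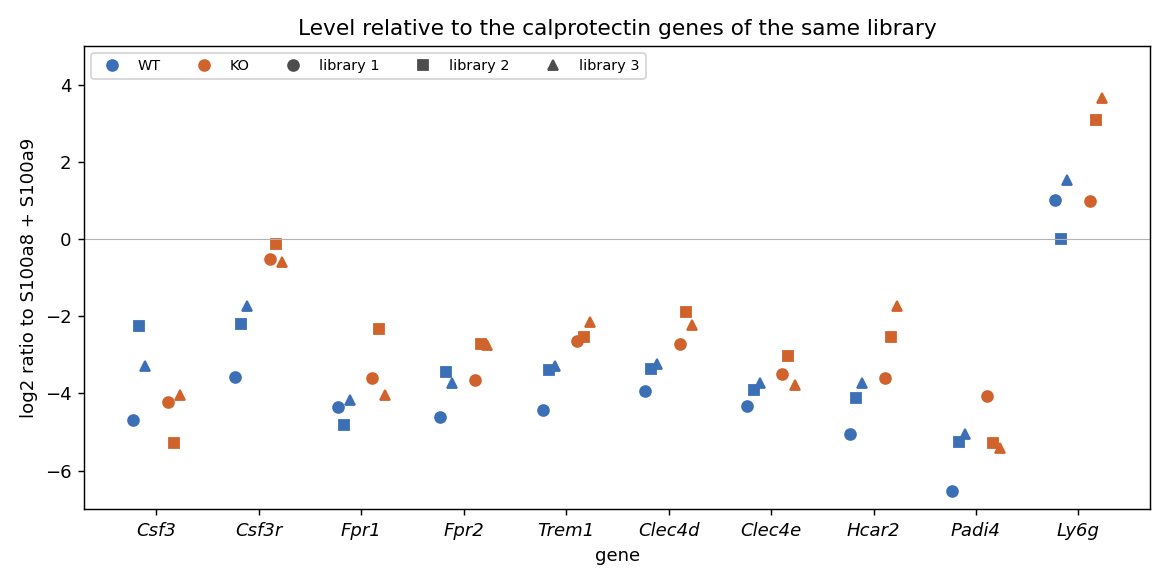
log2 ratio of each gene's CPM to the summed CPM of S100a8 and S100a9 in the same library (pseudocount of 0.1 CPM), WT in blue and KO in orange, marker shape for the library number. KO points lie above all WT points for Csf3r, Fpr1, Trem1, Clec4d and Hcar2, and Csf3 has the lower mean ratio in KO. The gap for Fpr1 is small, rests on 3 reads in KO 3 and depends on the pseudocount.

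Of 23 inducers and signalling genes of the G-CSF pathway, 19 were tested and 17 of them were below 0 (median -0.44, against 45.8% of all genes below 0). edgeR called 1 lower and none higher. This was Socs3, the feedback inhibitor of the G-CSF and IL-6 family receptors, with 135, 137 and 113 CPM in WT and 55.2, 37.4 and 30.5 CPM in KO (-1.64 ± 0.22, adjusted p = 0.0495). The edgeR call was lost with median-ratio factors (adjusted p = 0.0555) and in 5 of the 6 fits that left out a library (0.0640 to 0.237), all but that without KO 1 (0.0201); DESeq2 called Socs3 in each of its 6 such fits. Stat3, the transcription factor downstream of the receptor, differed by -0.46 ± 0.19 (adjusted p = 0.372). Mcl1, a survival factor of neutrophils, and Il17rc, a subunit of the IL-17 receptor, stood at -0.03 ± 0.17 and 0.18 ± 0.14. DESeq2 also called Il1b (-1.92 ± 0.41 in edgeR), Il1r1 (-1.17 ± 0.25), Cebpb (-0.87 ± 0.25) and Pim1 (-1.02 ± 0.26) lower, genes named after their values were seen. Il17a, Il17f and Il23a, inducers of G-CSF upstream of or within the IL-17 axis, were under the filter, with 25 reads of Il17a over each genotype.

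Receptors and ligands of the other colony-stimulating factors differed less than Csf3. None of 7 tested was called in edgeR (4 lower at an unadjusted p below 0.05), and DESeq2 called 1 lower, Csf2rb, the common beta chain (-1.14 ± 0.27, edgeR adjusted p = 0.153). Csf1r, the macrophage growth factor receptor gene, differed by -0.85 ± 0.49 with overlapping groups, and its ligand genes Csf1 and Il34 by -0.37 ± 0.34 and -0.80 ± 0.24. Csf2, which encodes GM-CSF, had 7 counts in KO and 17 in WT and was below the filter.

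Family relatives of the receptors were mostly below 0, and few were called. Of 30 relatives 17 were tested and 16 of them were below 0 (median -0.65), and edgeR and DESeq2 each called 1 lower and none higher. The called gene was Ly6c1 (179, 150 and 161 CPM in WT and 62.6, 47.2 and 43.2 CPM in KO, -1.68 ± 0.17, edgeR adjusted p = 0.0287), a relative of Ly6g found on endothelium and lymphocytes. Its edgeR call was kept without KO 1 (adjusted p = 0.0201) and lost in the other 5 fits that left out a library (0.0533 to 0.180), whereas DESeq2 called it in all 6. Endothelial markers moved with it, as given above, and their part in it was not tested. Ly6a, Ly6e and Ly6c2 differed by -0.42 ± 0.20, 0.10 ± 0.29 and -1.08 ± 0.61 and were not called. The Ly6 genes are similar in sequence, and the sources used here do not say how the counting shared reads among such copies. Among 15 adaptor and signalling genes edgeR called none (4 lower at an unadjusted p below 0.05) and DESeq2 called 1 lower, Arrb2, a beta-arrestin gene named for that reason (-0.65 ± 0.17). Tyrobp, which encodes DAP12, and Fcer1g, the Fc receptor gamma chain gene, differed by -0.76 ± 0.36 and -0.80 ± 0.31, and the G protein genes Gnb2 and Gnai2 by 0.19 ± 0.17 and -0.11 ± 0.16.

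Of 12 genes for ligands or ligand production, 11 were tested (median -0.14). edgeR called none (3 lower and 1 higher at an unadjusted p below 0.05), and DESeq2 called 3 lower (Saa3, the complement gene C3 and C5ar1, itself a complement receptor gene, the last pair named after their values were seen). Saa3, which encodes a serum amyloid A protein that binds FPR2, had 659, 222 and 188 CPM in WT and 60.3, 39.3 and 29.4 CPM in KO (-3.05 ± 0.52, edgeR adjusted p = 0.0720), and it fell in DESeq2. Saa1 differed by -0.51 ± 0.25. Pglyrp1, a ligand of TREM-1, differed by -0.11 ± 0.19.

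Markers of macrophages and monocytes, which share several of the receptors, were lower as well but overlapped. Of 12 such markers none was called by edgeR or DESeq2 (1 lower at an unadjusted p below 0.05), none separated the groups, and their median was -0.80. Their sums were 897, 688 and 317 CPM in KO 1, KO 2 and KO 3 and 738, 1170 and 1260 CPM in WT 1, WT 2 and WT 3. WT 1, the highest WT library for 8 of the 10 genes, was the lowest WT library for these markers. Of the neutrophil markers other than the 10 genes, 11 of 12 were tested and 9 lay lower in KO without overlap, against 10.2% of all genes. All 12 are also in the list of other neutrophil genes above, so this is not a separate result. The 9 include Ngp, Stfa2l1, Mmp8 and Retnlg, which passed the filter through WT alone. No marker of either list was at 0 in all libraries.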

How the data were processed

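Colon RNA was sequenced in 3 KO and 3 WT libraries made with the SMARTER mRNA-Seq kit from Trizol extracts, per the labels' protocols. The aligner, counter, annotation and strand setting were not stated in these sources. GRCm38, mm10 and mm39 are listed, with no role, per the submitters' processing notes. Read counts per gene were used as the authors deposited them, 15786214 to 22932125 per library. The TPM values are the authors' own and served for levels per length and 1 alternative. The deposited log2 fold change, p-value and adjusted p came from the authors' comparison, whose tool is not named.

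The whole table was fitted with edgeR 4.0.16 (TMM factors, default expression filter by group, quasi-likelihood F-test, R 4.3.3), leaving 14553 of 21899 genes. Standard errors were derived from the F statistic and are approximate. Alternatives were DESeq2 1.42.0, limma 3.58.1 (voom, or log2(TPM + 1)), other scaling factors, other filters, a replicate block, a threshold of 0.1 and leaving out each library. The main edgeR steps, written out apart from the fit, were run on simulated counts. They called 17 of 40 genes lowered by 1 on the log2 scale, 31 of 40 lowered by 2 and 37 of 40 lowered by 3. Of genes raised by 1 and by 2 they called 12 of 40 and 35 of 40. The changed genes were drawn from all that passed the filter, whatever their level. Library replicates differed beyond sampling noise in every pair. Gene positions are from GENCODE M21 (GRCm38), matched by identifier.

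The 10 genes and all gene lists were chosen with earlier results of these data known. Named were the 10 genes, Adamts4, the 4 most abundant genes by TPM and any gene called by edgeR in each list, any gene of the neutrophil list, and the 5 genes with the most similar profile; others are marked as chosen after their values were seen. Some genes that this rule names are not reported here. The planned protein comparison was not run, as no protein table was used here. Intervals and floors cover counting error only where they come from counts.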

Additional observations from a re-analysis of the deposited data

How the results depend on the processing

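The 10 genes kept a log2 fold change below 0 in all 14 alternative fits and in the 6 DESeq2 fits that left out a library, which were added after seeing the data. The number of the 10 called lower was 0 in edgeR, 7 in DESeq2, 2 with limma on log2(TPM + 1) and 2 at an adjusted p below 0.1. Leaving out 1 library gave 0 to 1 called genes in edgeR and 2 to 8 in DESeq2. None was called higher in any of these fits. Over the whole table edgeR called 22 genes lower and 1 higher. Median-ratio factors gave 9 and 0, upper-quartile factors 38 lower, limma-voom 2 higher, no count filter 66 and 3, limma on log2(TPM + 1) 66 and 2, DESeq2 431 and 106, and an adjusted p below 0.1 114 and 20. Leaving out 1 library gave 1 to 29 lower and 0 to 2 higher in edgeR, and 234 to 769 lower and 49 to 231 higher in DESeq2. The cause of these differences was not tested. The list counts changed by over 1.5 times in 52 of 252 alternatives.

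Libraries of the 2 genotypes share only a replicate number. Deviations of same-numbered libraries from their group means correlated at -0.419, -0.15 and -0.429, which gave no sign of pairing by number. With 3 libraries a group these values cannot exclude a pairing. The fit with the replicate block called 78 genes lower and 3 higher, and 0 of the 10 genes.

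With all 12 neutrophil markers in place of S100a8 and S100a9, the log2 ratio, KO minus WT, was -3.75 for Csf3 and turned negative for the others: -0.57 for Csf3r, -1.52 for Fpr1, -1.76 for Fpr2, -1.40 for Trem1, -1.42 for Clec4d, -2.09 for Clec4e, -0.98 for Hcar2, -1.97 for Padi4 and -0.93 for Ly6g. With a pseudocount of 0.5 CPM the ratio to S100a8 and S100a9 was -0.06 for Csf3, 1.05 for Clec4e and 1.75 for Padi4. Depth limits Csf3 and Padi4 in KO 2 and KO 3, where they had at most 3 counts.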

Other observations

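Outside the 10 genes, those whose centred levels lay closest to their mean profile were Gpx3, an extracellular glutathione peroxidase, Kcne4, a potassium channel subunit, Rasl11a, a small GTPase of the Ras family, Ifitm1, an interferon-induced membrane protein, and Socs3. Their root-mean-square differences from that profile over the 6 libraries were 0.13, 0.14, 0.15, 0.16 and 0.17 on the log2(CPM + 0.5) scale. Gpx3 had 446, 331 and 296 CPM in WT 1, WT 2 and WT 3 and 166, 101 and 66.9 CPM in KO 1, KO 2 and KO 3 (-1.68 ± 0.33, edgeR adjusted p = 0.0979). Kcne4 had 36.1, 24.4 and 30.4 CPM in WT and 13.4, 8.67 and 8.05 CPM in KO (-1.59 ± 0.25, edgeR adjusted p = 0.0595). These genes were picked for their likeness over 6 libraries, so the likeness is a description.

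Ngp, a granule protein gene, had 1 count over the KO libraries and 25.3, 8.25 and 1.12 CPM in WT 1, WT 2 and WT 3.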
